A study of Carassius auratus with 10 samples.

Results

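Kinesins are motor proteins that walk along microtubules by hydrolysing ATP. One set of them builds and runs the mitotic spindle: these motors push the spindle poles apart, move and align chromosomes, and bundle the midzone microtubules at which a dividing cell is cleaved. Another set hauls vesicles, mitochondria and endosomes through the cytoplasm or carries material into the cilium, and those motors are used by dividing and non-dividing cells alike. In the fish brain the radial glial cells, which line the ventricles, act as progenitors throughout adult life, so the mitotic motors are commonly read as genes of dividing cells there.

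The kinesin genes described here were every gene symbol of the annotated transcript tables that begins with "kif" followed by a digit or the letter c. This gave 34 of 17474 symbols. The reads of a gene were summed over its unigenes, the assembled transcripts that carry its name, and the 34 genes took in 181 unigenes. By their known roles 12 genes were mitotic motors, 15 were transport motors, 3 served the cilium and 4 belonged to the atypical kinesin-11 group. Symbols were taken by name alone, but the kinesins and the lists of their roles were chosen with earlier results of these data known.

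The RNA came from cultures of goldfish (Carassius auratus) radial glial cells (RGCs) prepared from the hypothalamus and telencephalon of adult females and used at passage 3. The labels name 4 untreated control cultures, 3 cultures given 1000 nM secretoneurin A (SNa), a neuropeptide cut from a secretogranin precursor, for 24 h, and 3 cultures given 10 µM SKF for 24 h. The methods of the study count 3 controls, and the label of SKF gives no other name. A control label has the form of a sequencing read file name, where the other labels are a group name with a number. What sets that control apart is not stated, nor is which of the controls entered the pooled values. The cultures were grown in serum-containing medium, while SNa was diluted for the exposure in medium without serum, and what medium the controls had during those hours is not stated. The same controls serve both comparisons.

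Each group was represented by 1 pooled value per unigene, so no spread between cultures, no SD and no test can be given, and no difference described here has a replicate check. The values correspond to whole reads, 147886694 in the control pool, 64778968 in the SNa pool and 86711702 in the SKF pool. Ratios are log2 of the treated over the control normalized value, and those in parentheses are 95% exact binomial intervals that cover counting error only. A gene was called lower or higher at a change of at least 2-fold, among genes with a mean normalized value of at least 10 over both pools, which all 34 kinesins reached in both comparisons with the control.

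The pools differed in cell type markers as well as in kinesins. Of the 10 radial glia markers that could be compared, 9 were below the control level in each treated pool. Their summed level was 7305 reads per 1000000 reads of the pool (CPM) in the control pool, 4190 in the SNa pool and 4142 in the SKF pool. Fibroblast and mural markers stood at 24893, 36483 and 36704 CPM, neuron markers at 124, 115 and 112 CPM, and lens crystallins and related genes at 983, 95.8 and 84.5 CPM. Of the fibroblast and mural markers compared, 15 of 18 were above the control level for SNa and 17 of 20 for SKF. Among those below it was rgs5b, with log2 ratios of -1.67 and -1.26. The glial markers gfap (239869 control reads) and vim (546697) were present in quantity, with log2 ratios to control of -0.53 and -0.69 for SNa and -0.58 and -0.68 for SKF. The radial glia markers fabp7a, slc1a3b and fabp7b were far lower, at -4.93, -3.13 and -2.22 for SNa and -4.84, -3.13 and -2.09 for SKF. The radial glia marker above the control level was nes (23698 control reads), at 0.50 for SNa and 0.28 for SKF. her4.1 was at -0.02 and -0.18. Neuronal transcripts were present in the control pool, among them atp1a3b (12007 reads), map2 (1748) and gap43 (1042), while elavl3 had 14, 0 and 10 reads. Below the control level were 7 of 13 neuron markers for SNa and 9 of 15 for SKF. atp1a3b alone made up 81.2 of the 124 CPM of neuron markers in the control pool. The part of these shifts in the results below was not tested, and in bulk RNA fewer cells of a type and less RNA per cell cannot be told apart.

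In the SNa pool the kinesins split by role. All 12 mitotic motors were below the control level and 12 of 15 transport motors were above it, where 49.4% of all symbols were below and 50.6% above. The median log2 ratio was -1.03 for the mitotic motors and 0.24 for the transport motors, against 0.01 over all 15900 symbols compared. At 2-fold, 6 of the 12 mitotic motors were lower and none was higher, while 5.72% of all symbols were lower and 2.02% higher. Among symbols with 90 to 1370 control reads, the range of the mitotic motors, 6.59% were lower. At a looser threshold of 1.5-fold 9 kinesins, 7 of them mitotic, were lower and 2 were higher, beside 11.8% and 9.04% of all symbols. No transport motor passed 2-fold in either direction. The shares of all symbols below and above the control level were not matched for the reads of the transport motors.

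The SKF pool showed the same division with smaller mitotic differences. The mitotic median was -0.59 and the transport median 0.38, against 0.04 over 16080 symbols. Under some alternatives, given below, the SKF mitotic median was less negative. The counting interval lay below 0 for 5 of 12 mitotic motors, and for 9 of 12 in the SNa comparison. Over all symbols, not matched for reads, it lay below 0 for 28.1% for SKF and 27.9% for SNa. Of the mitotic motors 10 of 12 were below the control level, beside 46.3% of all symbols below and 53.7% above, and 3 of 12 were at least 2-fold lower, where 5.16% of all symbols and 5.91% of symbols in the same read range were lower. At 1.5-fold 9 kinesins, 6 of them mitotic, were lower and 4 were higher, beside 11.6% and 12.9% of all symbols. Both treated pools are set against 1 control pool, so the comparisons are not independent of each other.

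**Figure D1:**
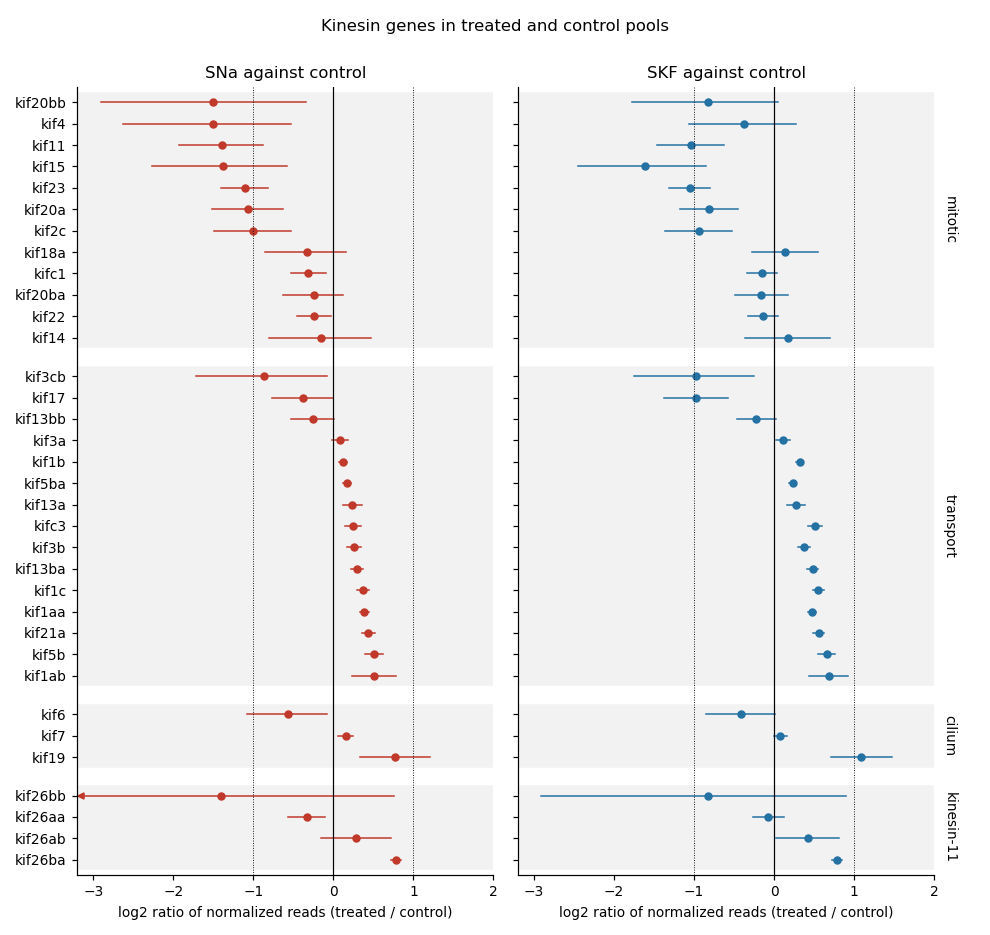
Log2 ratio of normalized reads for each of the 34 kinesin genes, SNa against control (red, left) and SKF against control (blue, right), by role. Points are the pooled ratios, bars are 95% exact binomial intervals for counting error only, dotted lines mark 2-fold, and the arrowhead marks an interval that runs off the axis. The upper 7 mitotic genes lie near or past 2-fold lower in the SNa panel, and most transport genes lie a little right of 0 in both.

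The summed mitotic level was below the control in both treated pools, at 43.8 CPM in the control pool, 29.1 in the SNa pool and 32.6 in the SKF pool. The ratio of the sums was -0.61 (-0.71 to -0.50) for SNa and -0.43 (-0.53 to -0.34) for SKF. These sums were less negative than the medians. kif22 and kifc1, which hold the most reads and differed little, weigh most in them. Mitotic motors supplied 5.19% of all kinesin reads in the control pool, 2.86% in the SNa pool and 2.98% in the SKF pool.

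kif23 encodes the motor subunit of centralspindlin, which organises the spindle midzone for cytokinesis. It had 1147 control, 235 SNa and 326 SKF reads, and its log2 ratios were -1.11 (-1.41 to -0.82) and -1.05 (-1.31 to -0.80). All 5 unigenes of the gene were below the control level in both treated pools, though by unequal amounts. The unigenes with 431 and 361 control reads, which overlap on the protein from residue 313 to residue 867, gave -1.27 and -1.15 for SNa and -1.16 and -1.15 for SKF. The one with 129 control reads gave -0.08 and -0.72.

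kif11, the tetrameric motor that slides antiparallel microtubules and separates the spindle poles, had 438 control, 74 SNa and 126 SKF reads. Its log2 ratio was -1.39 (-1.93 to -0.88) for SNa and -1.03 (-1.46 to -0.62) for SKF. Of its 8 unigenes 7 were below the control level for SNa and 6 for SKF. Those with 218 and 84 control reads were at -1.58 and -1.54 for SKF, and the others with SKF reads ran from -0.70 to 0.76. kif15, a motor that can take over part of the work of KIF11, had 176, 30 and 34 reads and ratios of -1.37 (-2.27 to -0.57) and -1.61 (-2.45 to -0.85). Together with kif23 these were the mitotic motors at least 2-fold lower for SKF, where 5.16% of all symbols were. They also passed 2-fold for SNa, but both comparisons use the same control pool, so the overlap is not read as a result.

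kif20a carries the chromosomal passenger complex to the midzone at anaphase. It had 511 control, 108 SNa and 172 SKF reads, with ratios of -1.06 (-1.51 to -0.63) and -0.81 (-1.18 to -0.45). kif2c, a kinesin that depolymerises microtubule ends and corrects faulty attachments of chromosomes, had 416, 92 and 128 reads and lay at the edge of the 2-fold line but short of it, at -0.998 (-1.49 to -0.53) and -0.94 (-1.37 to -0.53). All 7 kif2c unigenes were below the control level in the SNa pool and 6 of 7 in the SKF pool.

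kif4, a chromosome-bound motor that limits the length of midzone microtubules, rested on fewer reads. It had 128 control, 20 SNa and 58 SKF reads. Its ratio was -1.50 (-2.63 to -0.53) for SNa and -0.38 (-1.07 to 0.27) for SKF, and only the SNa interval excluded 0. kif20bb, one of a pair of genes for the late cytokinesis motor KIF20B, had 90, 14 and 30 reads, with ratios of -1.51 (-2.90 to -0.35) and -0.82 (-1.77 to 0.05).

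The other mitotic motors differed little. kif22, which pushes chromosome arms away from the poles, had 1370 control, 511 SNa and 732 SKF reads and ratios of -0.24 (-0.46 to -0.03) and -0.14 (-0.33 to 0.04). kifc1, a minus-end-directed motor that focuses spindle poles, had 1336, 475 and 708 reads and ratios of -0.31 (-0.53 to -0.10) and -0.15 (-0.34 to 0.03). Both are backed by more reads than any other mitotic motor, and their intervals leave out a 2-fold change. Their unigenes were uneven for SNa, at -0.86, -0.62 and 0.16 for kifc1 and -0.56 and -0.08 for kif22. The intervals of the sums do not cover that disagreement.

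kif18a, which damps chromosome oscillations at the spindle equator, had 262, 92 and 170 reads and ratios of -0.33 (-0.85 to 0.16) and 0.14 (-0.27 to 0.54). kif14, a cytokinesis motor that recruits citron kinase, had 156, 62 and 104 reads and ratios of -0.15 (-0.80 to 0.47) and 0.18 (-0.36 to 0.70). kif20ba, the copy of kif20bb, had 454, 169 and 240 reads and ratios of -0.25 (-0.62 to 0.12) and -0.16 (-0.49 to 0.17). All of these intervals included 0, so for the last 3 genes no direction could be read at this depth. The kif20ba sum includes unigenes that match the protein at as little as 25.9% identity.

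The single transcripts were less uniform than the gene sums. Of the mitotic unigenes with a mean of at least 0.2 CPM over the 3 pools, 23 of 29 were below the control level for SNa and 20 of 29 for SKF, or 79.3% and 69.0%, where 45.6% and 42.6% of all 35408 unigenes with a symbol were. For kif18a the unigenes disagreed. The one with 79 control reads was at -1.80 for SNa and -1.73 for SKF, and the one with 36 control reads was at 1.01 and 0.45. When each gene was represented only by its unigene with the highest mean, kif18a (1.01), kif20ba (0.48), kifc1 (0.16) and kif14 (0.08) were above the control level for SNa, and the other 8 mitotic motors were below it.

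**Figure D2:**
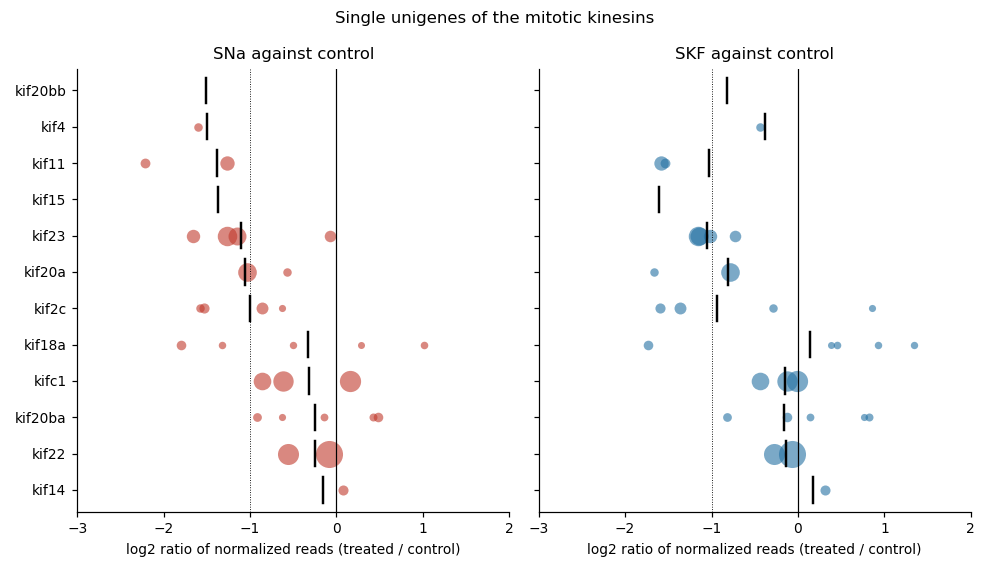
Log2 ratio of normalized reads for single unigenes of the 12 mitotic kinesins with a mean of at least 0.2 CPM over the 3 pools, SNa (red, left) and SKF (blue, right) against control. Each disc is a unigene, its area grows with the control reads, the black bar is the ratio of the gene's summed reads, and the dotted line marks 2-fold lower. The discs of kif23 all lie left of 0, those of kif18a lie on both sides, and kif20bb and kif15 have no unigene at this level.

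The spread of reads over unigenes differed between the roles and bears on how firmly each ratio stands. The median unigene of a mitotic motor held 32 control reads and that of a transport motor 559. The assembly numbers its unigenes, and over stretches of 10000 numbers the median log2 ratio ran from -1.06 to 0.69 for SNa and from -1.21 to 0.54 for SKF. With each unigene centred on its stretch, the mitotic median was -0.95 for SNa and -0.59 for SKF.

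Of the 15 transport motors 12 were above the control level in both treated pools, by less than 2-fold, and kif13bb, kif17 and kif3cb were below it in both. Their summed level was 686 CPM in the control pool, 823 in the SNa pool and 898 in the SKF pool, a ratio of 0.25 (0.23 to 0.27) and 0.38 (0.36 to 0.40). The counting interval lay above 0 for 11 of 15 in the SNa comparison and 12 of 15 in the SKF comparison. Over all symbols it lay above 0 for 28.1% and 33.4%. Intervals narrow as reads increase, and the median transport motor held 5391 control reads. The shares over all symbols were not matched for reads, so they are no like-for-like comparison.

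**Figure D3:**
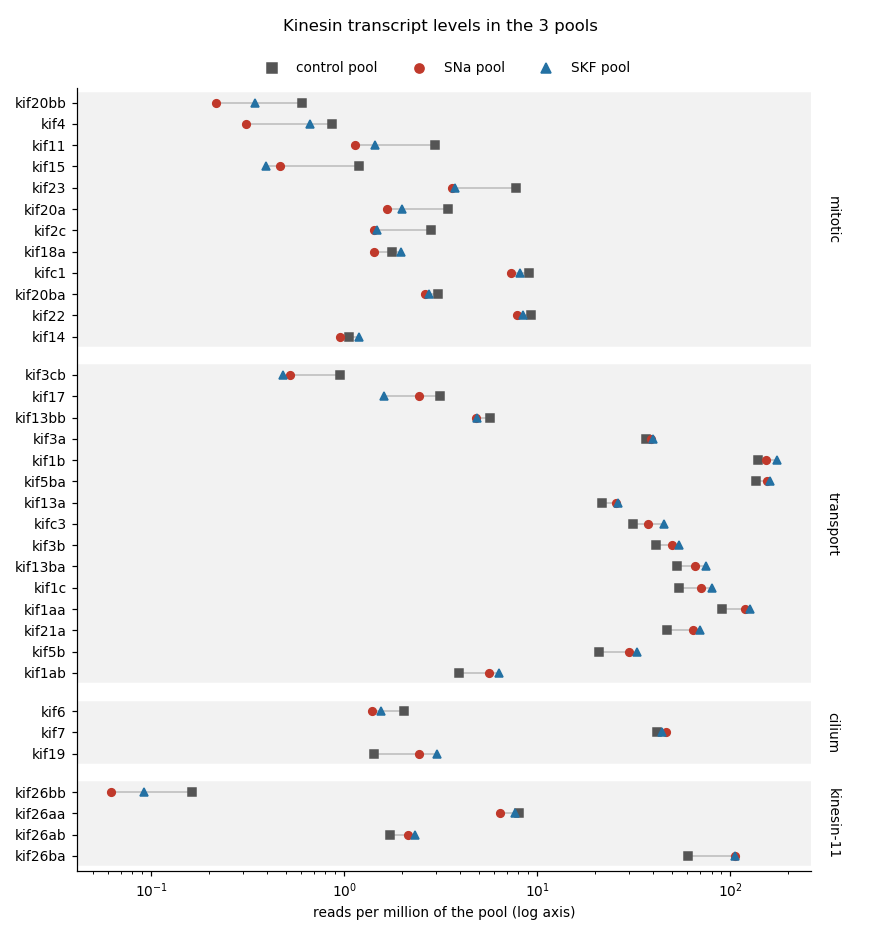
Level of each kinesin gene in CPM of the pool (log axis) in the control (grey squares), SNa (red circles) and SKF (blue triangles) pools, by role, with 1 pooled value per symbol and no error bar. Levels are not divided by transcript length, so they can be compared between pools for a gene but not between genes. The control square lies right of both treated symbols for most mitotic genes and left of both for 12 transport genes.

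The conventional kinesin-1 motors, which carry vesicles and mitochondria together with kinesin light chains, stood on many reads. kif5ba had 20016 control, 9981 SNa and 13863 SKF reads and ratios of 0.18 (0.13 to 0.22) and 0.23 (0.19 to 0.28). The kif5ba unigene with 5687 control reads was at -0.06 and -0.07, and the other 6 were above the control level in both pools. kif5b, a symbol held by 1 unigene, had 3087, 1941 and 2868 reads and ratios of 0.51 (0.39 to 0.63) and 0.66 (0.55 to 0.76). That unigene covers residues 486 to 913 of its protein, and its ratio was above that of kif5ba in both pools. Centred on its stretch of unigene numbers, kif5b was at 1.30 and 1.69. That stretch is the last and is incomplete, and its medians rest on only 144 unigenes for SNa and 170 for SKF.

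The kinesin-3 motors, which move synaptic vesicle precursors and other membrane cargo, formed the largest family among the transport genes. kif1aa had 13379 control, 7727 SNa and 10975 SKF reads and ratios of 0.39 (0.33 to 0.44) and 0.48 (0.43 to 0.53), and all 7 of its unigenes were above the control level in both treated pools. Its copy kif1ab had 582, 366 and 550 reads and ratios of 0.51 (0.24 to 0.78) and 0.68 (0.44 to 0.92). The pair moved in the same direction by similar amounts, with overlapping intervals.

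kif1b, a motor of mitochondria and vesicles, had 20672, 9948 and 15222 reads and ratios of 0.12 (0.07 to 0.17) and 0.32 (0.28 to 0.36). One kif1b unigene with 3682 control reads matches only 29 residues of the protein, and with matches of at least 50 residues alone, an alternative chosen after seeing the data, kif1b was at 0.19 and 0.41. Centred on stretches of unigene numbers, kif1b was at 0.04 and 0.16, below its intervals. The kif1b unigenes were split for SNa, with 5 above the control level and 5 below, and 9 were above it for SKF. kif1c, a carrier of vesicles between the Golgi and the cell edge, had 8043, 4586 and 6960 reads and ratios of 0.37 (0.29 to 0.44) and 0.55 (0.49 to 0.62). Its unigene with 4829 control reads matches at 74.45% identity, and unigenes of at least 80% identity alone put kif1c at 0.14 and 0.25. The direction was the same for both genes in both pools.

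The kif13 motors of the same family carry endosomes and receptors. kif13a had 3188, 1660 and 2278 reads and ratios of 0.24 (0.11 to 0.36) and 0.28 (0.17 to 0.39), but its 2 unigenes were split, with -0.16 and 0.56 for SNa. kif13ba had 7876, 4272 and 6499 reads and ratios of 0.30 (0.22 to 0.37) and 0.49 (0.42 to 0.55). Its copy kif13bb lay on the other side of 0, with 841, 311 and 425 reads and ratios of -0.26 (-0.53 to 0.01) and -0.22 (-0.47 to 0.02), although unigenes of at least 80% identity alone gave 0.42 for SKF. The kif13ba and kif13bb intervals did not overlap in either comparison.

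The heterotrimeric kinesin-2 motor, built from KIF3A, KIF3B and the adaptor KAP, carries cargo up the cilium. kif3a had 5391 control, 2519 SNa and 3440 SKF reads and ratios of 0.08 (-0.02 to 0.18) and 0.11 (0.03 to 0.20). kif3b had 6130, 3244 and 4689 reads and ratios of 0.26 (0.17 to 0.35) and 0.38 (0.30 to 0.45). Each of these symbols had a single unigene, and kif3b was above kif3a by intervals that overlapped for SNa only.

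The other kinesin-2 genes were lower than in the control. kif3cb, a copy of the gene for the alternative partner KIF3C, had 140, 34 and 42 reads and ratios of -0.86 (-1.72 to -0.08) and -0.97 (-1.75 to -0.25). kif17, which works as a homodimer in dendrites and cilia, had 465, 158 and 140 reads and ratios of -0.38 (-0.77 to -0.00) and -0.97 (-1.38 to -0.58). They were the only transport motors whose intervals lay below 0. Of the control reads of kif17, 281 and 166 lay on 2 unigenes that match only residues 99 to 126 of the protein, and without such short matches, an alternative chosen after seeing the data, the gene had too few reads to be compared.

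kif21a, a motor that also restrains microtubule growth at the cell cortex, had 6957, 4162 and 6027 reads and ratios of 0.44 (0.36 to 0.52) and 0.56 (0.48 to 0.63). kifc3, a minus-end-directed motor linked to cell junctions and apical transport, had 4662, 2434 and 3913 reads and ratios of 0.24 (0.14 to 0.34) and 0.51 (0.42 to 0.60). The kifc3 ratio was thus larger for SKF than for SNa, with intervals that did not overlap. The 6 kifc3 unigenes were split for SNa, with 3 above the control level and 3 below, and 5 were above it for SKF.

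The cilium motors did not move as a group. kif19, which trims microtubules at the tip of motile cilia in mice, had 210 control, 158 SNa and 264 SKF reads and ratios of 0.77 (0.33 to 1.20) and 1.09 (0.71 to 1.48). It was the one kinesin at least 2-fold higher, in the SKF pool, where 3.17% of all symbols were, and 8 of its 9 unigenes were above the control level there. In the SNa pool its unigenes were split, with 5 above the control level and 4 below. kif6, needed for ependymal cilia to beat in zebrafish and mice, had 302, 90 and 134 reads and ratios of -0.57 (-1.08 to -0.08) and -0.41 (-0.85 to 0.01).

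kif7, which regulates Hedgehog signalling at the cilium tip, had 6158, 3026 and 3831 reads and ratios of 0.15 (0.06 to 0.24) and 0.08 (-0.01 to 0.16). Centred on its stretch of unigene numbers its SKF ratio was -0.14. Its single unigene covers residues 1 to 1363 of the matched protein, and its level differed by less than 1.5-fold between any of the pools.

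The kinesin-11 genes bind microtubules but lack the usual motor activity. kif26ba, an orthologue of the gene that in mice acts in kidney development and cell adhesion, had 8954 control, 6821 SNa and 9120 SKF reads. Its ratios were 0.79 (0.72 to 0.85) and 0.79 (0.73 to 0.85), or 1.73-fold in both pools. This was the highest ratio of any kinesin with over 1000 control reads, and both long unigenes of the gene gave it, at 0.79 and 0.79 for SNa and 0.77 and 0.81 for SKF.

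Its relatives did not share that value. kif26aa, a copy of the gene that in mice curbs growth factor signalling in gut neurons, had 1190, 417 and 668 reads and ratios of -0.33 (-0.57 to -0.10) and -0.07 (-0.27 to 0.13). Its unigenes with 734 and 438 control reads gave -0.82 and 0.19 for SNa. kif26ab had 256, 138 and 202 reads and ratios of 0.29 (-0.16 to 0.72) and 0.42 (0.03 to 0.81). kif26bb had 24, 4 and 8 reads, and its ratio of -1.41 (-4.61 to 0.76) for SNa, the seventh kinesin past 2-fold lower, could not be told from no change.

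Set directly against each other without the controls, the treated pools differed less. At a level of at least 0.1 CPM 33 kinesins could be compared in CPM, and 28 of them were lower in the SNa pool, where 56.2% of all 15832 symbols were. The mitotic median was -0.20 and the transport median -0.11, against -0.03 over all symbols. Only kif4 was at least 2-fold lower, at -1.12 (-2.32 to -0.04), where 2.28% of all symbols were at least 2-fold lower and 0.686% of those in the mitotic read range. No kinesin was at least 2-fold higher, where 1.76% of symbols were.

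For the mitotic motors 11 of 12 of these intervals included 0. Of the transport motors 9 had an interval below 0 and 1 above it, and over all symbols, not matched for reads, 14.5% lay below and 7.54% above. Of those below 0, the widest difference was that of kifc3, at -0.26 (-0.37 to -0.16). kif17 was the only kinesin with an interval above 0, at 0.60 (0.11 to 1.08), and kif26ba was level at 0.00 (-0.06 to 0.07).

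**Figure D4:**
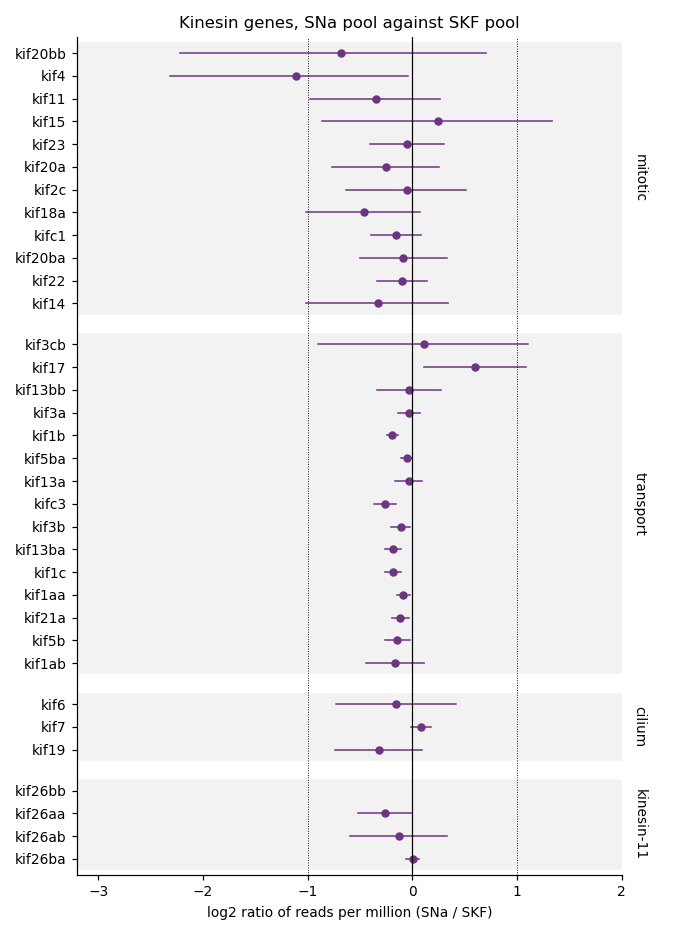
Log2 ratio of CPM in the SNa pool over the SKF pool for the 33 kinesins that reached 0.1 CPM, by role in the order of the plot of ratios to control. Points are pooled ratios, bars 95% exact binomial intervals for counting error only, and dotted lines mark 2-fold. kif4 alone lies past 2-fold, and most transport genes lie a little left of 0.

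Most other genes of cell division were below the control level alongside the mitotic motors. Of 53 spindle and mitosis genes that could be compared, 24 were at least 2-fold lower in the SNa pool and 20 in the SKF pool, none was higher, and the medians were -0.93 and -0.85. These are 45.3% and 37.7% of the list, beside 5.72% and 5.16% of all symbols, and 4 of the 53 were above the control level in each pool. The 34 S-phase genes had medians of -0.48 and -0.54, with 4 and 9 at least 2-fold lower, or 11.8% and 26.5% of the list, and 2 and 4 were above the control level. The lists were put together with results of these data known.

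The mitosis genes with the most reads were not the ones that differed most. ckap5, a microtubule polymerase, had ratios of 0.17 (0.10 to 0.25) and 0.27 (0.20 to 0.34), and the cyclin gene ccnb2 had -0.01 (-0.13 to 0.10) and -0.02 (-0.13 to 0.09). bub3 of the spindle checkpoint had -0.43 (-0.57 to -0.30) and -0.48 (-0.61 to -0.36). The ubiquitin-conjugating enzyme gene ube2c had -0.32 (-0.47 to -0.18) and -0.31 (-0.44 to -0.18), and anln, for the cleavage furrow protein anillin, had -0.14 (-0.29 to 0.01) and -0.25 (-0.39 to -0.11).

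The known partners of the mitotic motors, named after their values were seen, did not all share the direction of their motor. racgap1, which joins KIF23 in centralspindlin, had 991, 434 and 662 reads and ratios of -0.01 (-0.25 to 0.22) and 0.18 (-0.02 to 0.38). aurkb, the passenger complex kinase that KIF20A carries, had 784, 160 and 266 reads and ratios of -1.11 (-1.48 to -0.76) and -0.80 (-1.09 to -0.51). tpx2, which helps place KIF11 and KIF15 on the spindle, had 1405, 326 and 430 reads and ratios of -0.93 (-1.18 to -0.68) and -0.95 (-1.17 to -0.72).

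The midzone bundler that positions KIF4 has 2 copies here, prc1a with ratios of -0.91 (-1.20 to -0.64) and -0.77 (-1.01 to -0.53) and prc1b with -0.94 (-1.42 to -0.49) and -1.05 (-1.48 to -0.63). cenpe, a kinesin of the kinetochore whose symbol the rule does not take in, had 644, 190 and 254 reads and ratios of -0.58 (-0.93 to -0.25) and -0.58 (-0.89 to -0.28). Its interval lay below 0 in both pools.

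Of the S-phase genes with the most reads, mcm7 of the replicative helicase had ratios of -0.58 and -0.54 and the sliding clamp gene pcna -0.58 and -0.50. The thymidylate synthase gene tyms had -0.29 and -0.12, and the chromatin assembly gene chaf1a had -0.28 and -0.38. uhrf1, which maintains DNA methylation after replication, lay above the control level in both pools, at 0.45 (0.36 to 0.55) and 0.52 (0.44 to 0.61).

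**Figure D5:**
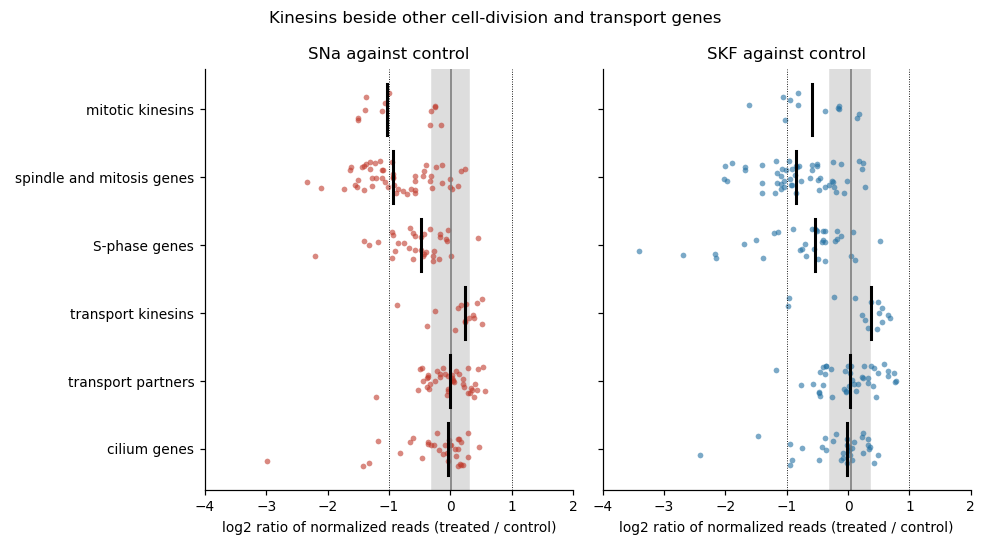
Log2 ratio of normalized reads for the mitotic and transport kinesins beside lists of spindle and mitosis, S-phase, transport partner and cilium genes, SNa (red, left) and SKF (blue, right) against control. Each point is a gene, black bars are list medians, the grey band spans the middle 50% of all symbols and the dotted lines mark 2-fold. The medians of mitotic kinesins, spindle genes and S-phase genes lie left of the band. That of transport kinesins lies inside it for SNa and just right of it for SKF. Those of transport partners and cilium genes lie inside it.

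The partners of the transport motors had no common direction. The median of 42 dynein, dynactin, light chain and adaptor genes was -0.01 for SNa and 0.04 for SKF. In each pool 1 was at least 2-fold lower, or 2.38% of the list beside 5.72% and 5.16% of all symbols. It was dync1i1, at -1.22 and -1.18, named after its values were seen. The dynein heavy chain gene dync1h1 had ratios of 0.33 in both pools, its light chain genes dynlrb1 and dynll1 had -0.46 and -0.38 for SNa and -0.57 and -0.47 for SKF, and the dynactin genes dctn2 and dctn1a had -0.16 and 0.03 for SNa and -0.26 and 0.06 for SKF. Of the kinesin light chain and KAP genes, chosen after their values were seen, klc1a and klc1b were at 0.39 and 0.29 for SNa. They were at 0.41 and 0.32 for SKF. The other light chain genes were klc4 at 0.22 and 0.26, klc2 at -0.17 (-0.38 to 0.03) and -0.06 (-0.24 to 0.12), and klc3, with 112 control reads, at 0.33 (-0.36 to 0.98) and -0.46 (-1.21 to 0.25). The KAP gene kifap3a was at 0.38 and 0.46 and its copy kifap3b at -0.25 and -0.40. Adaptor genes, also picked after their values were seen, lay on both sides of 0. mapk8ip3 was at -0.53 and -0.36, mapk8ip1 at -0.22 and -0.04 and trak1 at -0.13 and 0.01. plekhm2 was at 0.45 and 0.48.

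The 34 cilium genes had medians of -0.05 and -0.02, with 4 at least 2-fold lower for SNa and 2 for SKF, or 11.8% and 5.88% of the list beside 5.72% and 5.16% of all symbols. In the list 14 were above the control level for SNa and 16 for SKF. The 4 lower for SNa are named here after their values were seen. foxj1a (430 control reads) had ratios of -1.32 and -0.94, and rsph4a (122) had -1.43 and -1.47. Fewer reads lay behind spag6 (92), at -1.17 and -0.95, and dnah7 (72), at -2.99 and -2.41. The intraflagellar transport gene ift22 had ratios of -0.61 and -0.75, ift46 had -0.27 and -0.25, and ift172, ift80 and the BBSome gene bbs2 were within 0.09 of 0 in both pools.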

How the data were processed

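RNA from 10 goldfish RGC cultures was sequenced as paired-end reads. The authors trimmed the reads, pooled replicates for de novo assembly with Trinity, clustered contigs into unigenes with CD-HIT and named them by BLAST against chordate proteins. The expression signal deposited by the authors is 1 normalized read value per group and unigene, scaled per comparison with DESeq. How reads were assigned to unigenes is not stated in the paper or labels. The deposited percent identity compares a unigene with its closest BLAST protein. Deposited columns of fold changes and p-values were not used.

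Whole reads were recovered from the step between values. 100% of the values were whole within 0.01 read, and both tables gave the same control reads for all 167448 shared unigenes. Reads were summed per gene symbol. A count test needs values per culture, so no test was run. Intervals (Python 3.11.15, SciPy 1.17.1) used reads divided by 2, on the inference that both mates of most read pairs were counted, since 74.8% to 79.7% of the values were even numbers of reads. They were checked on data simulated with every read paired and no spread between cultures, which cannot test that inference. SNa was compared with SKF in CPM.

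The kinesin members and gene lists were chosen with earlier results of these data known. Named with values are all mitotic members, transport and cilium members with at least 100 control reads, other members past 2-fold, the other kinesin-11 genes (added after their values were seen), and up to 5 members of a list with the most control reads. Further list members were named after their values were seen. Alternatives were CPM, centring, read minimums, identity, joined copies, single unigenes and a 1.5-fold threshold.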

Additional observations from a re-analysis of the deposited data

How the results depend on the processing

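In the SNa comparison the counts of kinesins at least 2-fold lower (7) and of mitotic kinesins among them (6) stayed within 1.5 times under every alternative tried. Neither the mitotic nor the transport median changed sign. At a 1.5-fold threshold the higher count for SNa was 2 instead of 0, and for SKF 9 kinesins, 6 of them mitotic, were lower instead of 3 and 4 were higher instead of 1. Setting the median of all symbols to 1 gave 5 lower for SKF. With the highest-mean unigene alone, SKF had 5 lower and 2 higher, SNa had 1 higher, the SKF mitotic median was -0.28, and 2 kinesins, both mitotic, were lower for SNa against SKF. With identity of at least 80% the SKF mitotic median was -0.26 in place of -0.59. Centring on stretches of unigene numbers gave 1 higher for SNa and 2 for SKF. A minimum of 50 left 0 lower for SNa against SKF. The causes were not tested. Apart from the 1.5-fold threshold, no share of all symbols is given for these alternatives, so their counts cannot be set against the background. Gene names read from protein names, an alternative chosen after seeing the data, added 21 unigenes and raised the symbols to 37. Leaving out single cultures was not possible with pooled values. No paired analysis was possible because each group has 1 pooled value. Few reads widen the intervals of kif26bb, kif20bb, kif4, kif15, kif3cb and kif14.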

Other observations

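Further kinesin transcripts carry a kinesin gene name only in their protein description and therefore fall outside the 34 symbols. kif16ba, for a kinesin-3 motor of early endosomes, had 1858 control, 766 SNa and 1044 SKF reads on 9 unigenes and log2 ratios of -0.10 (-0.27 to 0.07) and -0.07 (-0.23 to 0.09). kif5bb, a further kinesin-1 gene, had 3362, 2025 and 2805 reads on 3 unigenes and ratios of 0.45 (0.33 to 0.56) and 0.50 (0.40 to 0.60), and kif5aa had 86, 58 and 72 reads on 7 unigenes and ratios of 0.61 (-0.12 to 1.32) and 0.51 (-0.17 to 1.18). These rows were found after seeing the data.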
